A study of Homo sapiens with 2 samples.

Results

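Signalling through the RAS and ERK kinases induces genes whose products hold the same pathway back and genes of transcription factors that carry its output. Here 10 such ERK-induced genes, called feedback genes below for short, were examined in a lung cancer line and in its drug-resistant derivative. They are the dual-specificity phosphatase genes DUSP4, DUSP5 and DUSP6, the Sprouty genes SPRY1, SPRY2 and SPRY4, the SPRED genes SPRED1 and SPRED2, and the PEA3 transcription factor genes ETV4 and ETV5. They were taken by symbol from a count table of 18944 genes, of which 12245 reached at least 1 CPM (the count scaled to library size) in at least 1 library and were compared. All 10 feedback genes were in the table, and all 10 exceeded 1 CPM in both libraries.

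In textbook accounts, receptor tyrosine kinases such as MET activate RAS, RAF, MEK and ERK in turn. ERK then raises transcription of phosphatases that remove the activating phosphates from ERK itself, of Sprouty and SPRED proteins that act on RAS and RAF, and of PEA3 factors, which belong to the ETS family and carry part of the transcriptional output. The RNA of these genes is therefore often used as a readout of ERK activity in epithelial cancers, including tumours driven by MET.

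H1993 is an established lung cancer line with an amplified MET gene. The parental library came from this line with DMSO as the labelled treatment. The resistant library came from cells selected in PHA665752, an inhibitor of the MET kinase, at concentrations rising from 1 nM to 1 µM. Per the labels, these cells were maintained at 1 µM and then spent 1 week in medium without the inhibitor ahead of the experiments, while the treatment label of the library reads PHA665752. Whether the inhibitor was present when RNA was taken, and whether the resistant cells are 1 clone or a mixture, is not stated in the sources used here, and drug presence cannot be told apart from resistance.

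There was 1 library per group, so no difference below has a replicate check and no p-value is given. Totals were 16723181 and 17086748 counts. Of the epithelial markers, KRT7, KRT8, KRT18, KRT19, EPCAM and CDH1 were all abundant, and the lowest of their levels was 163.7 CPM, for EPCAM in resistant cells, where it was 2.38-fold lower than in parental cells (95% counting interval 2.28 to 2.49). The log2 ratios of resistant over parental were 0.05 (KRT7), 0.35 (KRT8), 0.33 (KRT18), -0.63 (KRT19) and -0.69 (CDH1). Of 7 epithelial and lung markers compared, 1 (EPCAM, 14.3%) was at least 2-fold lower and 0 were at least 2-fold higher. Over all compared genes these shares were 8.29% and 12.1%. The lung lineage factor gene NKX2-1 had 4.16 and 5.95 CPM, and the surfactant-related genes NAPSA and SFTPB had 0 and 0, and 2 and 2 counts. Among 11 markers of blood, endothelial and fibroblast cells, 4 were compared, and 2 of these (CD68 and PTPRC) were at least 2-fold lower in resistant cells. Over all compared genes 8.29% were. Their CPM summed to 108.8 (parental) and 48.1 (resistant), mostly CD68 (86.0 and 31.6 CPM) and COL1A1 (20.7 and 14.3 CPM). CD3E and DCN were at 0 counts in both libraries, PECAM1, PDGFRB, VWF and LUM had at most 3 counts, and the leukocyte gene PTPRC had 21 and 7 (-0.21 with the deposited log2 values). The part of these marker differences in the results below was not tested.

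Promoter sequence is shown for SPRY1, called lower below, and for SPRY2 of the same family, whose window holds the ETS letters. The third member, SPRY4, had a ratio in the other direction, and its window is not printed because it overlaps an exon. RefSeq promoter windows (assembly GRCh38.p14) were used for 6 of the 10 genes, DUSP6, SPRED1, SPRED2, SPRY1, SPRY2 and SPRY4. There were 10 windows in all because some genes have several starts. No window was used for DUSP4, DUSP5, ETV4 and ETV5. Whether one exists for DUSP4 was not tested. The 250 bases before the first SPRY1 start (chr4:123396545-123396794, plus strand) and the first SPRY2 start (chr13:80341127-80341376, minus strand) lie in no exon of GENCODE release 29. This SPRY2 start lies outside the GENCODE gene given below, and in 7 of the 10 windows the bases after the start lay in a GENCODE transcript of the gene. They are printed 5′ to 3′, with the ETS core letters CCGGAA in capitals where present.
SPRY1: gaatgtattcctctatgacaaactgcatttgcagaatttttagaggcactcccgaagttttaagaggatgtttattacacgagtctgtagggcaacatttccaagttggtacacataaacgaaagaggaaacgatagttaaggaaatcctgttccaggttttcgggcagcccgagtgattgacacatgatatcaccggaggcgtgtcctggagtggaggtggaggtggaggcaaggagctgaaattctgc
SPRY2: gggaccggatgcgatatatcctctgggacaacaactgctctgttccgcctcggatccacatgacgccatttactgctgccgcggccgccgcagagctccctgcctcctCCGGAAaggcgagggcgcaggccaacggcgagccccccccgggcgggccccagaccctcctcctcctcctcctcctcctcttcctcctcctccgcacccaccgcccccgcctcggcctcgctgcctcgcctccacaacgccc
The SPRY2 window holds CCGGAA once, its last base 137 bases before the start, and the SPRY1 window does not hold it. A later SPRY1 start has CCGGAA 62 bases before it, counted the same way. The letters CCGGAA were present on either strand in 14.5% of all 35116 windows of this length and in 2 of the 10 windows of the feedback genes. The octamers TGAATGAA and TGAATGGA, bound by the repressor CIC that acts on PEA3 genes, were in 0 of the 10 windows and in 1.40% and 0.832% of all windows. The AP-1 letters TGANTCA (6.57% of all windows) and the cAMP response letters TGACGTCA (1.65%) were also in 0 of the 10. The 2 CCGGAA matches were the only matches, so none overlapped another motif. The DUSP6 window overlaps an exon of the GENCODE model and is not printed.

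The feedback genes did not move as a block. DUSP6 and SPRY1 were called lower in the resistant library, 0 of the 10 were called higher, and the remaining 8 stayed short of 2-fold, with 5 ratios below 0 and 3 above. A gene was called when its log2 ratio of resistant over parental was 1 or more in size and its exact 95% interval, which covers counting error only, excluded 0. The 2 of 10 called lower (20%) stand beside 8.29% of all compared genes called lower, and the 0 of 10 called higher beside 12.1%. With stricter or other rules, the background was 5.35% lower and 8.96% higher (whole interval beyond 2-fold), 2.93% and 6.32% (4-fold), and 4.83% and 7.56% (the authors' deposited log2 values differing by 1 or more). Under these rules, in the same order, 2, 1 and 2 of the 10 feedback genes were called lower and 0 higher. The median log2 ratio of the 10 genes was -0.42 and that of all compared genes 0.00.

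**Figure D1:**
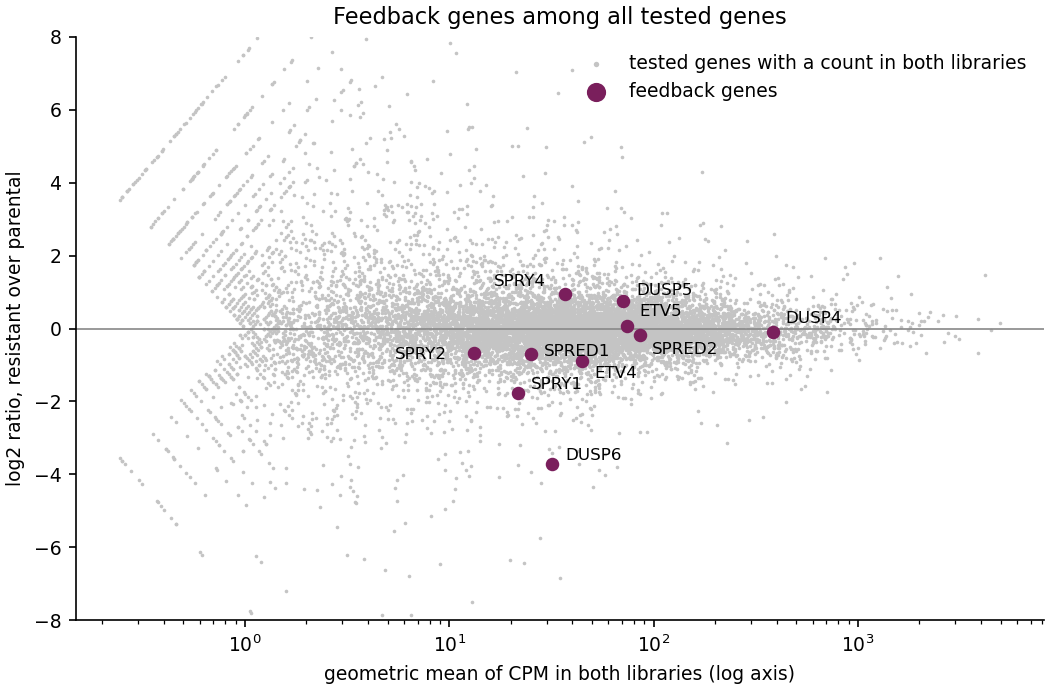
Log2 ratio of resistant over parental against the geometric mean of CPM in both libraries (log axis) for the 12064 compared genes with a count in each library (grey; 12 lie beyond the axis limits of 8 in size) and for the 10 feedback genes (purple). DUSP6 lies at -3.73 and SPRY1 at -1.76, below most genes of like abundance, and the other 8 lie within 1 of 0.

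DUSP6 encodes a cytoplasmic phosphatase that binds and dephosphorylates ERK. Parental cells had 1962 counts (116.5 CPM) and resistant cells 149 counts (8.78 CPM). Resistant cells were thus 13.3-fold lower (95% counting interval 11.2 to 15.8), a log2 ratio of -3.73. Counted from the lowest ratio, it ranked 131 of the 12245 compared genes. The authors' deposited normalized values, converted from the log2 scale and reduced by the 1 they appear to include, were 35.4 and 2.65, or 13.3-fold lower. They appear to be the same counts rescaled, so this is not an independent check. In GENCODE release 29 the gene spans chr12:89347232-89353271 (GRCh38, minus strand), and 1789 of its exon bases are shared with an antisense transcript, AC024909.2, which is not in the table analysed here. The strand setting of the counting is not stated, so reads of the antisense transcript cannot be told apart from those of DUSP6.

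DUSP4 and DUSP5 encode nuclear phosphatases, of which DUSP5 is specific for ERK and DUSP4 also acts on other MAP kinases. DUSP4 had 6660 and 6316 counts, or 395.6 CPM (parental) and 372.1 CPM (resistant). Its log2 ratio was -0.09 (interval -0.14 to -0.04), the second smallest in size among the 10 genes. DUSP5 had 921 and 1569 counts, or 54.7 and 92.4 CPM, and was 1.69-fold higher in resistant cells (1.56 to 1.84), short of the 2-fold rule. The 3 phosphatase genes therefore differed in both directions, with DUSP6 alone past 2-fold. DUSP4 lies at chr8:29333064-29350668 on the minus strand and DUSP5 at chr10:110497838-110511544 on the plus strand.

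The Sprouty proteins are recruited to the membrane and restrain signalling between receptors and RAS or RAF. SPRY1 (chr4:123396795-123403760, plus strand) had 673 counts (39.98 CPM) in parental and 200 counts (11.8 CPM) in resistant cells. It was 3.39-fold lower in the latter (2.89 to 3.99), at rank 422 of 12245 from the lowest ratio. SPRY2 (chr13:80335976-80340951, minus strand) had 279 and 177 counts, or 16.6 and 10.4 CPM, with a log2 ratio of -0.67 (-0.95 to -0.39). SPRY4 (chr5:142310427-142325040, minus strand) had 445 and 866 counts, or 26.4 and 51.0 CPM. SPRY4 was 1.93-fold higher (1.72 to 2.17) and its log2 interval of 0.78 to 1.12 spans 1, so counting error alone does not settle on which side of 2-fold it lies. SPRY4 thus had the highest ratio of the 10 genes and SPRY1 the second lowest, within 1 family. As a result SPRY1 had more counts than SPRY4 in the parental library and fewer in the resistant one.

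The SPRED proteins resemble the Sprouty proteins and bring the RAS inhibitor neurofibromin, the NF1 product, to the membrane. SPRED1 (chr15:38252326-38357249, plus strand) had 541 and 334 counts, or 32.1 CPM (parental) and 19.7 CPM (resistant). It was 1.63-fold lower (1.42 to 1.88). SPRED2 (chr2:65310851-65432177, minus strand) was close between the libraries, with 1527 and 1361 counts and a log2 ratio of -0.18 (-0.28 to -0.07). NF1 had 2080 and 2626 counts and a log2 ratio of 0.32. Neither SPRED gene reached 2-fold.

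ETV4 and ETV5 encode PEA3 factors that bind ETS sites and are held down by CIC when ERK is inactive. ETV4 (chr17:43527844-43546432, minus strand) had 1018 and 553 counts, or 60.5 CPM (parental) and 32.6 CPM (resistant). Its log2 ratio was -0.89 with an interval of -1.04 to -0.74 that spans -1, so counting error leaves its side of the 2-fold rule undecided, as for SPRY4. ETV5 (chr3:186046308-186109112, minus strand) had 1212 and 1284 counts, or 72.0 and 75.6 CPM. Its log2 ratio of 0.07 had an interval of -0.04 to 0.19, which includes 0, and it was the single gene of the 10 for which this held. ETV4 shares 54 exon bases with DHX8 on the other strand (985 and 1106 counts), and ETV5 shares 164 with DGKG, which had 0 and 1 counts.

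**Figure D2:**
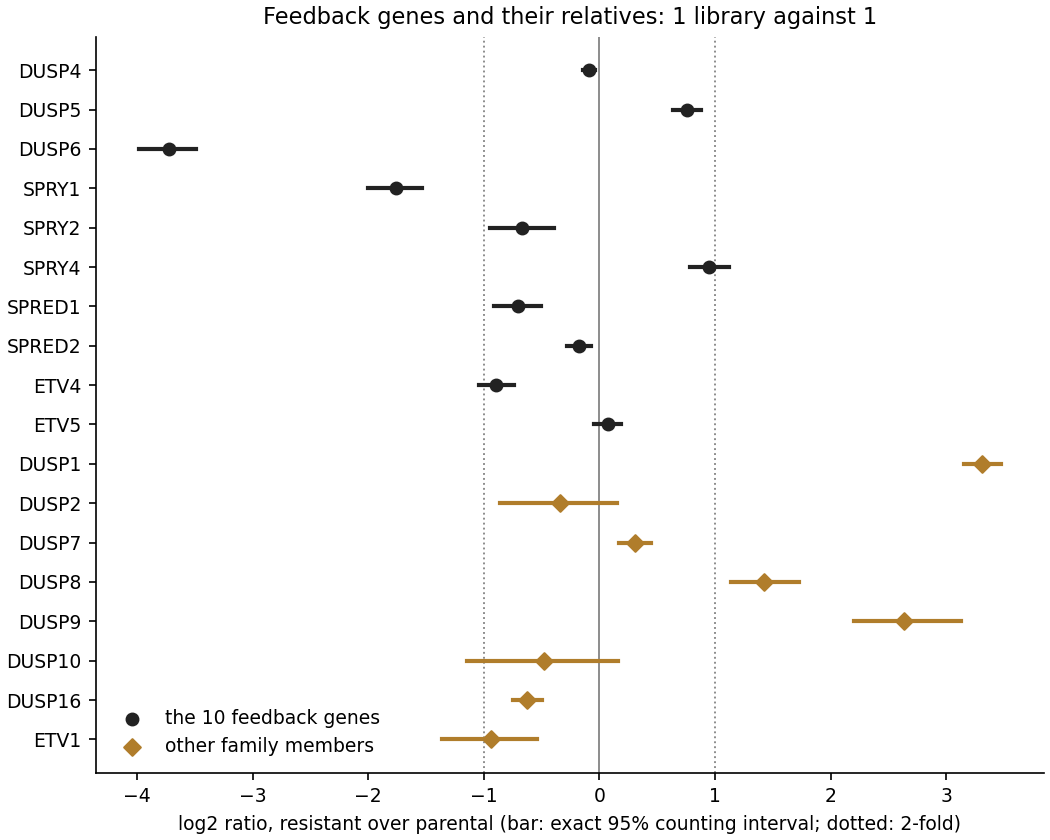
Log2 ratio of resistant over parental with its exact 95% counting interval (horizontal bars) for the 10 feedback genes (black circles) and for 8 family members outside them (brown diamonds). Dotted lines mark 2-fold. DUSP6 and SPRY1 lie wholly to the left of the lower line, and DUSP1, DUSP8 and DUSP9 wholly to the right of the upper one.

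Levels of different genes were compared per length, as CPM per kilobase (kb) of the joined exons of protein-coding GENCODE transcripts. In the parental library DUSP4 was the most abundant of the 10 at 54.5 CPM per kb and DUSP6 the next at 25.6. SPRED2, ETV4 and DUSP5 followed at 21.8, 21.6 and 21.4 CPM per kb with overlapping exact counting intervals. ETV5 (16.6), SPRY1 (13.2), SPRY2 (5.46), SPRY4 (5.31) and SPRED1 (4.13) completed the order, and of these the intervals of SPRY2 and SPRY4 overlapped.

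In the resistant library DUSP4 was again the most abundant at 51.3 CPM per kb, while DUSP6 was the last of the 10 at 1.93. DUSP5 was second at 36.2, then SPRED2 (19.3), ETV5 (17.5), ETV4 (11.6), SPRY4 (10.3), SPRY1 (3.90), SPRY2 (3.43) and SPRED1 (2.53 CPM per kb). Intervals of neighbours overlapped for SPRED2 and ETV5, ETV4 and SPRY4, SPRY1 and SPRY2, and SPRED1 and DUSP6. The shift of DUSP6 from rank 2 to rank 10 was the same with the authors' deposited normalized values, which also scale with length as far as the values show. Since these appear to rescale the same counts, that is not an independent check. The exon lengths of the authors' annotation are not given in the sources used here, so ranks of genes with close levels are uncertain. In bulk RNA, fewer cells that express a gene and less of its RNA per cell cannot be told apart.

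**Figure D3:**
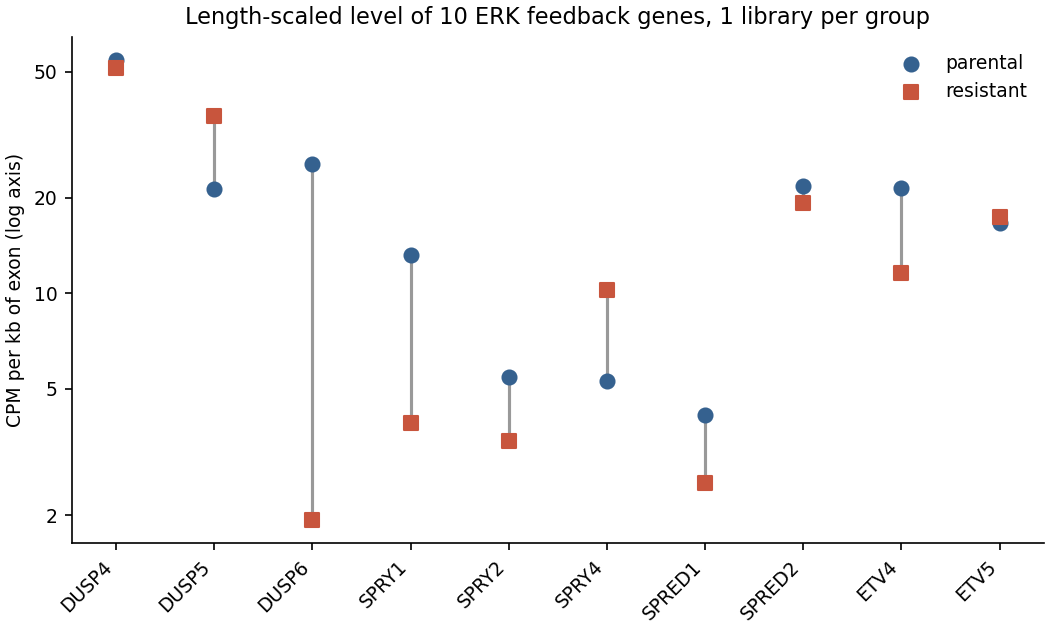
CPM per kb of exon (log axis) of the 10 feedback genes in the parental (blue circles) and resistant (red squares) library, 1 library per group. The line of DUSP6 runs from 25.6 to 1.93, from the second highest to the lowest point of its library, and DUSP4 stays at the top in both.

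The feedback phosphatases belong to a family of 10 MAP kinase phosphatase genes, and the 7 others were compared as well. Of these, 3 were called higher (42.9%) and 0 lower, beside 12.1% and 8.29% of all compared genes. DUSP1, an immediate early and stress-inducible nuclear phosphatase gene, had 369 and 3694 counts and was 9.93-fold higher in resistant cells (8.92 to 11.1). DUSP9, a close relative of DUSP6 that also acts on ERK in the cytoplasm, had 47 and 297 counts and was 6.27-fold higher (4.595 to 8.72), a log2 ratio of 2.63, or 1.97 with the deposited log2 values. DUSP8, which acts on JNK and p38, had 133 and 361 counts (2.69-fold higher, 2.20 to 3.31). DUSP7, the third cytoplasmic ERK phosphatase gene, had 783 and 978 counts and a log2 ratio of 0.31. DUSP16 (-0.62), DUSP10 (-0.48) and DUSP2 (-0.35) were not called.

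The makeup of the family differed between the libraries accordingly. DUSP6 took 16.0% of the 12296 counts of these 10 genes in the parental library (exact 95% interval 15.3 to 16.6%) and 1.04% of 14307 (0.882 to 1.22%) in the resistant one. DUSP4 took 54.2% (53.3 to 55.1%) and 44.1% (43.3 to 44.96%), and DUSP1 3.001% (2.71 to 3.32%) and 25.8% (25.1 to 26.6%). These shares are not scaled for length, and the DUSP4 exons (7.26 kb) are longer than those of DUSP1 (2.02 kb). In the resistant library DUSP1 exceeded DUSP4 per length, at 107.8 against 51.3 CPM per kb, while in the parental one DUSP4 was higher, at 54.5 against 10.9. Per length, DUSP6 exceeded DUSP9 in the parental library, at 25.6 against 1.11 CPM per kb, and the order was the opposite in the resistant library, at 1.93 against 6.95. Grouped by their textbook location and substrate, a grouping made after the values were seen, DUSP6, DUSP7 and DUSP9 summed to 40.7 CPM per kb in parental cells and 26.1 in resistant cells. The nuclear inducible DUSP1, DUSP2, DUSP4 and DUSP5 summed to 89.5 and 197.3, of which DUSP1 was 10.9 and 107.8. DUSP8, DUSP10 and DUSP16 summed to 17.5 and 15.0.

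**Figure D4:**
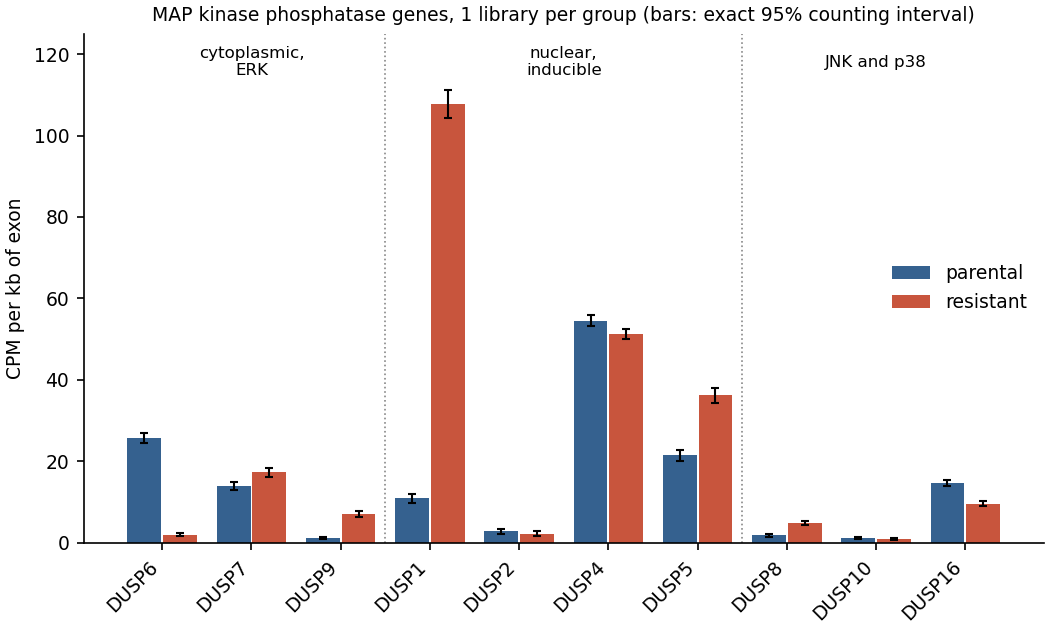
CPM per kb of exon of the 10 MAP kinase phosphatase genes in the parental (blue) and resistant (red) library, with exact 95% counting intervals, grouped by location and substrate. DUSP6 drops from 25.6 to 1.93, DUSP9 stands at 1.11 and 6.95, and DUSP1 at 10.9 and 107.8.

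Of the paralogs of the other feedback families, SPRY3 and SPRED3 were under 1 CPM in both libraries. SPRY3 had 0 counts in both libraries, which allows up to 0.178 CPM (parental) and 0.177 CPM (resistant), and SPRED3 had 8 and 4 counts. ETV1, the remaining PEA3 gene, had 151 and 79 counts and a log2 ratio of -0.94 (-1.36 to -0.54), on the same side as ETV4 (-0.44 with the deposited log2 values).

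In the cascade that feeds these genes, 1 of 28 genes was called higher and 2 lower, with a median log2 ratio of 0.14. These are 3.57% and 7.14% of the list, beside 12.1% and 8.29% of all compared genes. The ERK1 gene MAPK3 had a log2 ratio of -0.54, and the MEK genes MAP2K1 and MAP2K2 had 0.02 and 0.15. The adaptor gene SHC1, the most abundant of the list, was at 0.25. Called lower were RPS6KA3 (-1.46) and RPS6KA1 (-1.17), genes of RSK kinases that ERK activates. RRAS, a relative of the RAS genes, was the 1 called higher, at 75 and 261 counts (1.78). Of the receptors upstream, 2 of 9 compared genes were called higher and 2 lower, 22.2% each way. MET, the target of the drug, was at -0.67, EGFR (1.19) and AXL (7 and 52 counts) were called higher, and ERBB3 (-1.29) and FGFR3 (-2.08) lower. With the deposited log2 values AXL (0.66) and FGFR3 (-0.96) did not reach 1.

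Among other brakes on RAS and ERK, 1 of 16 compared genes was called higher and 2 lower, with a median of -0.14. These are 6.25% and 12.5% of the list, beside 12.1% and 8.29% of all compared genes. PTPRR, which encodes a tyrosine phosphatase that binds ERK through the same type of docking site as DUSP6, had 878 counts in parental cells and 2 in resistant cells. Its log2 ratio was -8.47 (-11.84 to -6.93), or -4.31 with the deposited log2 values. DAB2IP, a RAS GTPase-activating protein gene, had 142 and 1200 counts (3.06). PEBP1, the RAF inhibitor gene and the most abundant of the list, was at -0.70.

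Among 12 partners and regulators of the feedback proteins, 2 were called higher and 1 lower, with a median of 0.19. These are 16.7% and 8.33% of the list, beside 12.1% and 8.29% of all compared genes. CAV1, whose product caveolin-1 binds Sprouty proteins, was the most abundant and had 15703 and 5005 counts (-1.66). TRIB1 (1.10) and TRIB2 (1.16), pseudokinase genes whose products work with the ubiquitin ligase COP1, were called higher, TRIB2 at 0.53 with the deposited log2 values. CIC, the repressor of PEA3 and other ERK-induced genes, had 1158 and 1774 counts (0.60). COP1, which marks PEA3 proteins for degradation, appears in the table under its older symbol RFWD2 and was at -0.15.

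Other genes commonly read as ERK outputs also differed in both directions. Of 22 compared, 6 were called lower and 3 higher, with a median of -0.09, and 5 more were under 1 CPM in both libraries. The called genes are 27.3% and 13.6% of those compared, beside 8.29% lower and 12.1% higher over all compared genes. HMGA2, a chromatin protein gene, had 3904 and 243 counts and was 16.2-fold lower (14.2 to 18.5), beside 13.3-fold for DUSP6. The EGFR ligand gene TGFA was at -2.20 and PHLDA1 at -1.27. TFPI2, a protease inhibitor gene, was 19.6-fold higher (18.1 to 21.2), the chemokine gene CXCL8 10.2-fold (7.07 to 15.3, a log2 ratio of 3.33, while the deposited log2 values differed by 2.59) and the cytokine gene LIF 4.09-fold (3.52 to 4.76). HMGA1, the most abundant, was at -0.13, and CCND1, the cyclin D1 gene, at -0.03. Of 14 compared ETS factors outside the PEA3 group, 0 were called higher and 2 lower (14.3%), with a median of 0.08. SPDEF had 54 and 0 counts (at least 18.2-fold lower, against 3 counts, and a difference of -1.49 between the deposited log2 values), ETV6 was at -1.32 (-0.77 with the deposited log2 values), and ELF3, the most abundant, was at 0.08.

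**Figure D5:**
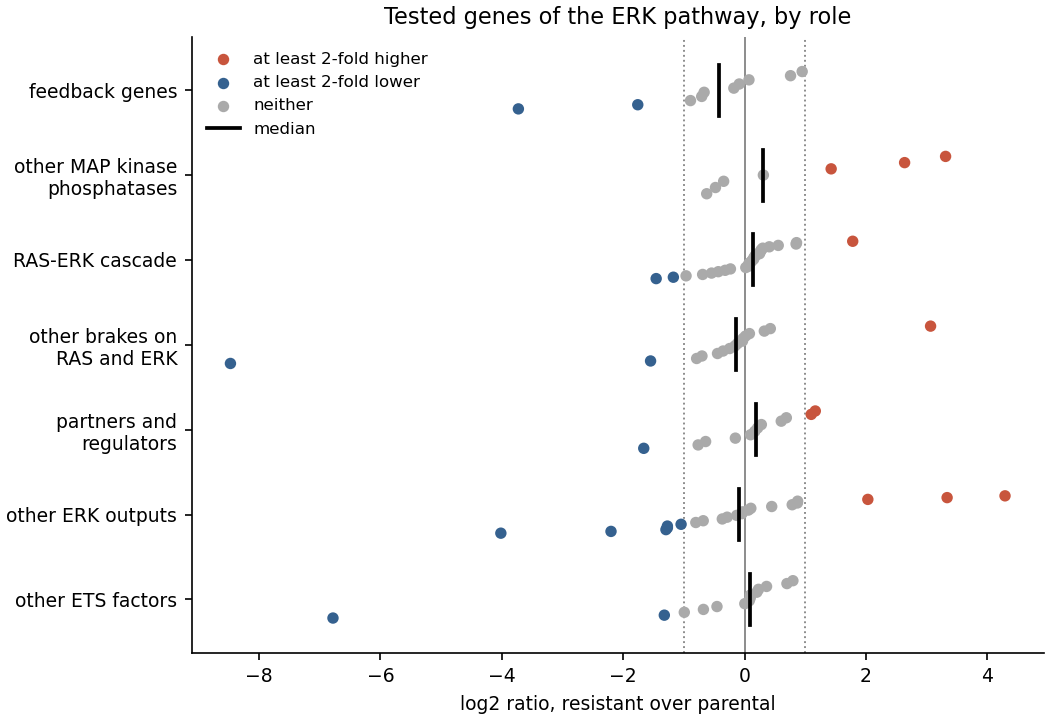
Log2 ratio of resistant over parental for compared genes in 7 lists of the ERK pathway, 1 point per gene and a black line at each list's median. Red points were called at least 2-fold higher, blue points lower and grey points neither. The medians run from -0.42 (feedback genes) to 0.31 (other MAP kinase phosphatases), and genes far to the left occur in several lists, such as DUSP6 (feedback genes), PTPRR (other brakes), HMGA2 (other ERK outputs) and SPDEF (other ETS factors). The point of SPDEF, at 0 counts in the resistant library, depends on the 0.5 added to each count.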

How the data were processed

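RNA sequencing was available for 2 libraries, 1 parental and 1 resistant. The authors deposited raw counts by gene symbol and, per the file headers, normalized log2 values for the same genes. Per the submitters' processing notes, FastQC and STAR were used and both GRCh38 and hg19 are named. The counting program, annotation, strand setting and normalization are not given in the sources used here. From the values, the deposited log2 values resemble log2 of a length-scaled value plus 1, which no source states: its linear value per count had a median ratio between libraries of 0.993, and 97.2% of 8345 genes with at least 200 counts in both lay within 5% of it. With an added 1, a log2 difference is smaller in size than the log2 ratio, most so for low values.

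Libraries were scaled by the trimmed mean of M-values in edgeR 4.0.16 (R 4.3.3), giving effective sizes of 16834058 and 16974207. Only scaling was taken from edgeR, with no model fit. The log2 ratio adds 0.5 to each count. Intervals are exact conditional binomial (Clopper-Pearson, scipy 1.17.1) at 95%, use the counts without that addition and, since reads are not independent molecules, cover counting error only. Intervals of levels are exact Poisson and those of shares exact binomial. A fold against 0 counts is set against 3 counts. The ratio and its intervals were checked on simulated Poisson counts. These hold only the error that the intervals assume, so this checks the computation and not variation between libraries.

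Gene positions, exon lengths and overlaps came from GENCODE release 29 (GRCh38), matched by symbol. All 158 listed genes were in the table, 1 under an older symbol. The feedback genes, the gene lists and the motifs were chosen with earlier results of these data known. Named are all feedback genes and family members, the epithelial and lung markers, MET, and of each other list its most abundant gene and up to 3 called genes in each direction with the interval bound farthest from 0; some listed genes are counted in their lists but not reported here by name. Outside that rule, NF1, MAPK3, MAP2K1, MAP2K2, CIC, COP1, CCND1, COL1A1 and the scarce markers of other cell types were named for their roles after their values were seen, as were overlapping genes. Alternatives were another scaling, filter, call rule, added count, and the deposited log2 values. Protein sequences were not used here.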

Additional observations from a re-analysis of the deposited data

How the results depend on the processing

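Each of the 10 feedback genes kept the sign of its log2 ratio under all 6 alternatives to the ratio (scaling by total counts or RLE size factors, at least 5 CPM, no filter beyond 1 count, the deposited log2 values, 1 added to each count). The filters change only which genes are compared and cannot alter a ratio, and each scaling shifts all ratios by the same amount. The deposited values appear to rescale the same counts, so none of these alternatives is an independent check. DUSP6 ranged from -3.75 to -3.32, SPRY1 from -1.78 to -1.58, ETV4 from -0.91 to -0.82 and SPRY4 from 0.84 to 0.96, and the calls of all 10 were as in the report. With the 4-fold rule 1 of the 10 was called lower, since SPRY1 was 3.39-fold lower. Over all compared genes, that rule called 774 higher and 359 lower in place of 1480 and 1015, the deposited log2 values 926 and 591, and the rule that the whole interval lie beyond 2-fold 655 lower. Of 361 values of genes picked by the naming rule or for their roles under these alternatives, 20 lay outside the interval of the counts, 18 of them with the deposited log2 values, and 0 reversed. With the apparent added 1 removed from the deposited values, DUSP6 was 13.3-fold lower and ETV1 1.85-fold lower. DUSP9 was then 6.27-fold higher and DUSP8 2.69-fold higher, and all of these folds lay within the count intervals. The cause was not tested. Of the 361, the 56 values with at least 5 CPM and the 61 with no filter beyond 1 count equal the main ones by design. Scaling moved the median of all compared genes by -0.02 (total counts) and 0.01 (RLE).

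With 1 library per group, no library can be left out. No paired analysis was possible because each group has 1 library. Depth limits the scarce genes: SPRY3 and SPRED3 were under 1 CPM in both libraries.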
